A study of Arabidopsis thaliana with 2 samples.

Results

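The 10 nuclear genes described here encode the soluble electron carriers of photosynthesis, the Rieske subunit of cytochrome b6f, subunits of the chloroplast ATP synthase and a protein of cyclic electron flow. They were taken by locus identifier from the deposited expression table, and all 10 were found among its 26743 features. They are PETC, the plastocyanin genes PETE1 and PETE2, the ferredoxin genes FD1 and FD2, the leaf ferredoxin-NADP reductase genes LFNR1 and LFNR2, ATPC1, ATPD and PGR5. Transcripts were measured by RNA sequencing of whole seedlings of Arabidopsis thaliana (Col-0), 7 days old and grown on 1/2MS plates without sucrose in 16 h of light and 8 h of darkness. One group was wild type (WT) and the other was the mutant jmj17-1, named for JMJ17, whose product removes methyl groups from H3K4, with 1 library each. The labels used here do not give the kind or position of the mutation, nor how many seedlings went into a library.

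In the thylakoid membrane, light drives electrons from water through photosystem II, plastoquinone, cytochrome b6f and plastocyanin to photosystem I, and on to ferredoxin and ferredoxin-NADP reductase, which makes NADPH. Electron flow through cytochrome b6f loads the thylakoid lumen with protons, and the ATP synthase makes ATP as they flow back to the stroma. Cyclic flow returns electrons from ferredoxin to plastoquinone and adds to the proton gradient without making NADPH. Most of these proteins are coded in the nucleus and imported, while further subunits of cytochrome b6f and of the ATP synthase are coded in the plastid.

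In jmj17-1 the transcripts of 9 of the 10 genes were lower than in WT and that of FD1 was higher, all by small amounts. The ratio of jmj17-1 to WT ran from 0.773 for PETE1 to 1.07 for FD1. The unit is RPKM, in which reads are divided by feature length in kilobases and by library size in units of 1000000 reads, so levels of different genes can be set side by side. Change was expressed as a log2 ratio of jmj17-1 to WT after 1 RPKM was added to each value, and its median over the 10 genes was -0.11, a fold of 0.926. The 18969 features whose mean reached 1 RPKM had a median of 0.04, and 39.5% of features had a log2 ratio below 0. That share became 50.0% when the median of all features was set to a ratio of 1, and 9 of the 10 genes still lay below 0. None of the 10 reached a 2-fold difference, which 0.58% of features reached downward and 0.39% upward. A plain ratio at least 1.2-fold lower was reached by PETE1 alone among the 10, against 9.86% of all features, and none was 1.2-fold higher, against 12.3%. Since each genotype had a single library, there is no replicate check and no p-value was calculated.

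The 10 genes are abundant, and the share of lower features depended on level. Of 1088 features averaging 100 RPKM or more, 36.2% lay below 0, with a median log2 ratio of 0.06, and 10.1% were at least 1.2-fold lower, PETE1 among them. Of 54 features averaging 1000 RPKM or more, 85.2% lay below 0, with a median of -0.24, and 38.9% were at least 1.2-fold lower. PETE2 and FD2 stand in that top group and both were below 0. So do 9 photosystem I genes, 8 photosystem II genes and 3 green-tissue markers described below, so the share at this level is partly their own. Of the 10 genes, 7 lay between 100 and 1000 RPKM, and 6 of these were below 0.

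**Figure D1:**
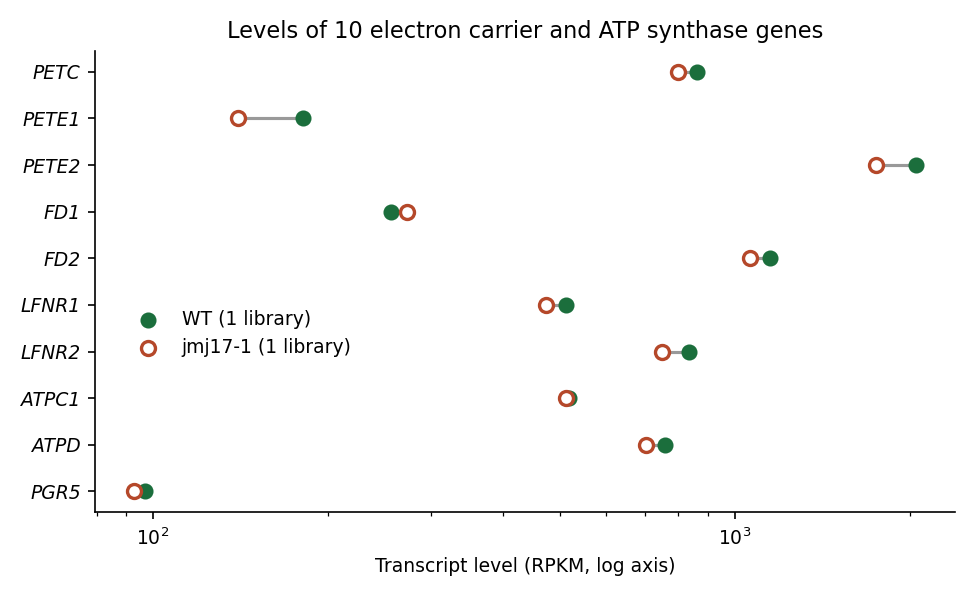
Transcript levels (RPKM, log axis) of the 10 genes in the WT library (filled points) and the jmj17-1 library (open points), joined by a line for each gene. The levels run from 92.9 RPKM for PGR5 to 2046 RPKM for PETE2, and the open point lies to the left for every gene except FD1.

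**Figure D2:**
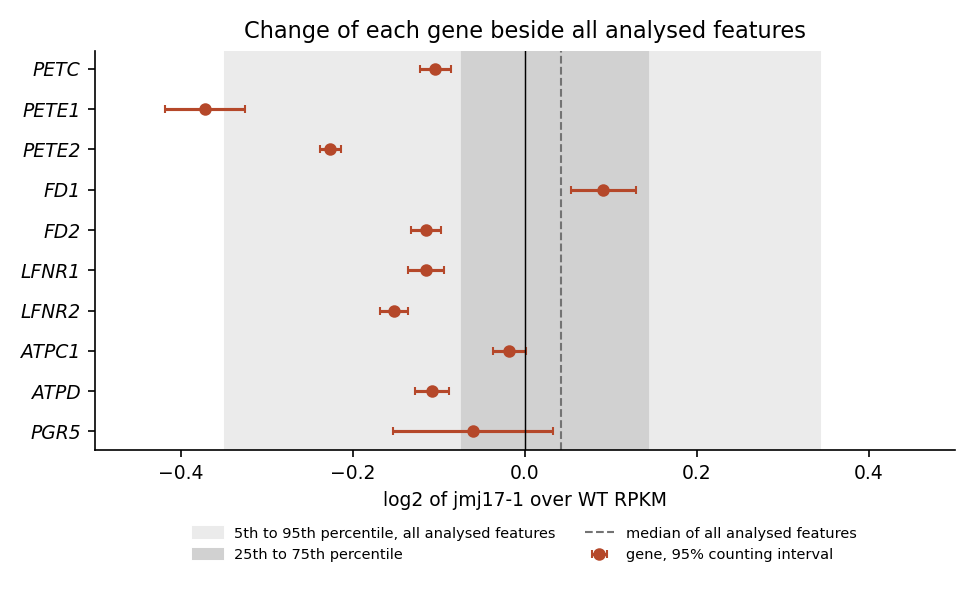
The log2 of the plain RPKM ratio of jmj17-1 to WT for each gene, with its 95% counting interval as a bar. The shaded bands hold the 25th to 75th and the 5th to 95th percentile of the log2 ratio with 1 RPKM added over 18969 features, and the dashed line is their median of 0.04. PETE1 is the one gene to the left of the wider band, and FD1 and ATPC1 lie within the narrower one, as does PGR5.

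The steps between low RPKM values gave the depth, 53890006 reads in the WT library and 45403267 in that of jmj17-1. For 72.1% of the 18952 analysed features above 0 in both libraries, both values came out at whole reads, within 1e-04 of a read, for a single feature length. This held for 7 of the 10 genes and not for FD1, LFNR1 and ATPD, whose read numbers below are approximate. Exact Clopper-Pearson 95% intervals were taken on the jmj17-1 share of the reads and cover counting error only. By these intervals 7 genes lay under a ratio of 1, ATPC1 and PGR5 included 1, and FD1 lay above it. With PGR5 read at its exonic length instead, 8 genes lay under 1 and the interval of ATPC1 included it. These counts hold for the scaling as deposited. The share of all features whose interval excludes 1 was not calculated, so the counts have no background beside them. With many reads a small difference is enough to exclude 1. JMJ17 (AT1G63490) was measured as the check of the labels. It measured 5.48 RPKM in WT and 2.90 in jmj17-1, from 1389 and 619 reads (ratio 0.529, 0.480 to 0.582).

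PETC (AT4G03280) encodes the Rieske iron-sulfur protein, which takes electrons from plastoquinol in cytochrome b6f. Its position in TAIR10.1 is chromosome 4, plus strand, 1440146 to 1441863, with up to 5 exons. PETC measured 860.0 RPKM in WT and 799.9 in jmj17-1, from 55571 and 43546 reads. The ratio was 0.930 (0.918 to 0.942), and 20.3% of analysed features had a lower log2 ratio. The nuclear genes listed beside it were PETM, a small subunit of the same complex, at 887 and 849 RPKM, and the cytochrome c6-like gene AT5G45040 at 13.0 and 11.3 RPKM. PETM (ratio 0.958, 0.944 to 0.972) and PETC had like levels in both libraries and both were slightly lower in jmj17-1.

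Plastocyanin, a copper protein of the lumen, carries electrons from cytochrome b6f to photosystem I, and Arabidopsis has a major and a minor form. Both genes consist of a single exon on the minus strand of chromosome 1. PETE1 (AT1G76100) spans 28553883 to 28554930, and PETE2 (AT1G20340, named DRT112 in RefSeq) spans 7042046 to 7043392. PETE2 is the most abundant of the 10 genes, 25th of all features in both libraries, at 2046 RPKM in WT and 1749 in jmj17-1. Its ratio was 0.855 (0.848 to 0.862) from 127351 and 91716 reads. PETE1 measured 181 RPKM in WT and 140.2 in jmj17-1, from 9456 and 6155 reads, with the lowest ratio of the 10 at 0.773 (0.748 to 0.798). Of all analysed features 4.47% had a lower log2 ratio than PETE1 and 9.51% a lower one than PETE2. In level, the difference of jmj17-1 from WT was -297 RPKM for PETE2 and -41.3 RPKM for PETE1. PETE2 exceeded PETE1 11.3-fold in WT and 12.5-fold in jmj17-1, and PETE1 made up 8.15% and 7.42% of the plastocyanin RPKM. Together the pair stood at 2227 and 1889 RPKM, a ratio of 0.848.

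The coding sequences of the pair, read from TAIR10.1, were identical at 377 of 503 aligned bases, and the longest identical run was 17 bases. The 90 aligned bases with the most matches are shown because they are where reads of the 2 genes are hardest to tell apart. Capitals mark the 12 bases that differ.
PETE1, coding bases 388 to 477: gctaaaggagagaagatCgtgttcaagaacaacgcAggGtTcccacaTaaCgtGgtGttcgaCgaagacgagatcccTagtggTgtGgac
PETE2, coding bases 268 to 357: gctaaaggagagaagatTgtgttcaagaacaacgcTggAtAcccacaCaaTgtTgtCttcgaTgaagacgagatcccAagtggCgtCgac

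Ferredoxins are small iron-sulfur proteins that take electrons from photosystem I and pass them to NADP reductase, nitrite and sulfite reduction, thioredoxins and cyclic flow. FD2 is the major leaf form and FD1 a minor one. FD2 (AT1G60950, named FED A in RefSeq) lies on the plus strand of chromosome 1 from 22444307 to 22445291 with 1 exon. It measured 1152 RPKM in WT and 1063 in jmj17-1, from 59574 and 46345 reads (ratio 0.923, 0.912 to 0.935). FD1 (AT1G10960), also 1 exon on the plus strand of chromosome 1, from 3664187 to 3665040, measured 257 RPKM in WT and 273 in jmj17-1 (ratio 1.07, 1.04 to 1.09, from about 11815 and 10604 reads). FD1 was the only gene of the 10 that was higher in jmj17-1, and 62.5% of analysed features had a lower log2 ratio, so its value lay near the middle of all features. FD2 exceeded FD1 4.49-fold in WT and 3.89-fold in jmj17-1, and FD1 made up 18.2% and 20.5% of the pair. Between the libraries the log2 balance of FD1 over FD2 was 0.21 higher in jmj17-1, against 0.15 lower for PETE1 over PETE2. Under quantile normalization the log2 balance differed by 0.051 for the ferredoxins and by -0.41 for the plastocyanins, so which pair shifted more depends on that step. PETE2 ranked 25th in both libraries, so quantile normalization gives it equal values by construction. The other rescalings cannot change a balance of 2 genes within a library.

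FD1 shares its first 78 bases with the end of AT1G10950 on the same strand, which measured 57.1 RPKM in WT and 60.3 in jmj17-1, a ratio of 1.06. The sources used here do not say how reads of the shared bases were assigned, so the FD1 value is uncertain.

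The leaf-type ferredoxin-NADP reductases are flavoproteins that pass electrons from ferredoxin to NADP, partly bound to the thylakoid. LFNR1 (AT5G66190) is on chromosome 5, minus strand, 26450964 to 26453199, and LFNR2 (AT1G20020) on the plus strand of chromosome 1 from 6942625 to 6945091, each with up to 9 exons. LFNR2 measured 834 RPKM in WT and 750.4 in jmj17-1, from 71766 and 54413 reads (ratio 0.900, 0.890 to 0.910). LFNR1 measured 513 RPKM in WT and 473 in jmj17-1 (ratio 0.923, 0.910 to 0.937, from about 41700 and 32438 reads). Both were lower in jmj17-1 by like amounts, and LFNR1 made up 38.1% of the pair in WT and 38.7% in jmj17-1. The log2 balance of LFNR1 over LFNR2 differed by 0.04, less than in the other pairs. LFNR1 overlaps AT5G66180 on the opposite strand over 191 bases. That neighbour measured 6.37 RPKM in WT and 6.76 in jmj17-1, far under LFNR1. Whether reads were counted by strand is unknown here, so reads of the shared bases may belong to either gene. Apart from that overlap, no transcript of another locus matched any of the 10 genes at 95% identity or more over at least 100 bases.

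The LFNR coding sequences were identical at 816 of 1083 aligned bases (75.3%), with a longest identical run of 17 bases. Their most alike 90 bases hold 10 differing bases, in capitals.
LFNR1, coding bases 907 to 996: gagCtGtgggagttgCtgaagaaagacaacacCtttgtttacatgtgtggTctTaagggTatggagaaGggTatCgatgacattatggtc
LFNR2, coding bases 934 to 1023: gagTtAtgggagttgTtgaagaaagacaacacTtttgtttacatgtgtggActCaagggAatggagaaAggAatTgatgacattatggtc

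ATPC1 (AT4G04640) encodes the gamma subunit, the turning shaft of the ATP synthase that carries its thiol switch, and ATPD (AT4G09650) the delta subunit, which joins the catalytic head to the stator. Both have 1 exon on chromosome 4, ATPC1 on the minus strand from 2350498 to 2352025 and ATPD on the plus strand from 6100714 to 6101864. ATPC1 measured 519 RPKM in WT and 512 in jmj17-1, from 48007 and 39933 reads. Its ratio of 0.987 (0.974 to 1.00) was the closest to 1 of the 10. ATPD measured 759 RPKM in WT and 705 in jmj17-1 (ratio 0.928, 0.915 to 0.941, from about 47106 and 36824 reads). ATPD exceeded ATPC1 1.46-fold in WT and 1.38-fold in jmj17-1.

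PGR5 (AT2G05620) acts in cyclic electron flow around photosystem I. Its position is chromosome 2, minus strand, 2080647 to 2081859, with up to 3 exons, and is the least abundant of the 10 genes. PGR5 measured 96.9 RPKM in WT and 92.9 in jmj17-1 (ratio 0.959, 0.899 to 1.02). The smallest length that gave whole reads was 405 bases, with 2114 and 1708 reads, and at this length the interval included a ratio of 1. At its exonic length of 1131 bases, the kind of length used for FD1, LFNR1 and ATPD, PGR5 would have about 5904 and 4770 reads and an interval of 0.923 to 0.996, which excludes 1. The sources used here do not give the length the authors used, so whether counting error spans 1 for PGR5 is uncertain. PETE2 exceeded PGR5 21.1-fold in WT and 18.8-fold in jmj17-1.

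In all, the 10 genes summed to 7217 RPKM in WT and 6559 in jmj17-1, 1.08% and 0.992% of the summed RPKM of the table. By level, the order in WT was PETE2, FD2, PETC, LFNR2, ATPD, ATPC1, LFNR1, FD1, PETE1 and PGR5. The same order held in jmj17-1. With 1 library each, no spread is known by which neighbours in that order could be told apart.

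The authors' deposited table gives a Z score and a p-value for each gene, which for all 26743 rows were those of 2 proportions with RPKM entered as counts out of 1000000, with no adjustment. In the authors' deposited table PETE2 had a Z of -4.83, PETE1 -2.30, LFNR2 -2.10, FD2 -1.88, PETC -1.48 and FD1 0.73. PETE2 was the 1 gene of the 10 in the authors' deposited table with a limit of 0.01 in its name, and PETE1, PETE2 and LFNR2 were in the one with 0.05. Those lists hold 288 and 410 of the 26743 features. At a given ratio this Z grows with RPKM, so abundant genes such as these are listed more easily. These scores take no account of the number of reads behind each RPKM or of spread between seedlings. FD2 is absent from both lists although its counting interval excludes a ratio of 1, as do those of PETC, ATPD, LFNR1 and FD1.

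Of the motifs searched on both strands in the 250 bases before each annotated start, none was held by all 10 genes. The I-box GATAAG was held by PETC, PETE2 and LFNR1 (12.3% of 27443 protein-coding genes), the G-box CACGTG by ATPD (6.49%) and the evening element AAAATATCT by ATPC1 (2.36%). TATAAA was held by PETE1, PETE2, LFNR2 and ATPD (47.3%), and no matches of different motifs overlapped in these genes. Some of these windows run into neighbouring loci, over 250 bases for FD1, 174 for LFNR1, 147 for PETE1, 138 for ATPD and 15 for PETE2. The G-box of ATPD, 142 to 137 bases before the start, lies within such a locus, AT4G09649.

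Other genes around these carriers were read from lists of the pathway, and none of their analysed members reached a 2-fold difference. In the 2 routes of cyclic flow the transcripts were mostly lower. PGRL1A and PGRL1B, partners of PGR5, stood at 184 and 144 RPKM (ratio 0.780, 0.760 to 0.801) and at 18.05 and 15.4 RPKM (ratio 0.852, 0.787 to 0.922). The counting interval of PGRL1A lies under that of PGR5 at either length, which compares these libraries and not the genotypes. The NDH complex feeds electrons from ferredoxin to plastoquinone. Of the 17 nuclear genes listed for it 15 lay below 0, against 39.5% of all analysed features, with a median log2 ratio of -0.22. The lowest were NdhS (AT4G23890) at 87.3 and 67.0 RPKM and NdhM (AT4G37925) at 56.2 and 43.1 RPKM, both subunits of the complex.

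The genes listed around ferredoxin went both ways. The ferredoxin-thioredoxin system switches stromal enzymes by light. Of the 10 genes listed with it, NTRC among them, 7 lay below 0, against 39.5% of all analysed features, with a median of -0.08. The number was 9 with the median of all features set to a ratio of 1, where 50.0% of all features lay below 0. It was also 9 under quantile normalization and when rescaled to features under 1000 RPKM. It stayed at 7 when rescaled without plastid- and mitochondria-encoded loci. FTRA2, a subunit of ferredoxin-thioredoxin reductase, stood at 123 and 104 RPKM (ratio 0.851, 0.817 to 0.886), and TRXF2, a thioredoxin f, at 89.9 and 76.9 RPKM (ratio 0.856, 0.818 to 0.895). Of 3 ferredoxin-using enzymes, NIR1, nitrite reductase, stood higher in jmj17-1 at 153 and 191 RPKM (ratio 1.25, 1.23 to 1.28), as did SIR, sulfite reductase, at 104 and 123 RPKM (ratio 1.19, 1.16 to 1.23). The third, GLU1, lay at a log2 ratio of -0.01. Of 4 other ferredoxins 3 were analysed, with a median of 0.09. FDC1, a ferredoxin-like protein, stood at 113 and 127 RPKM and FD3, the ferredoxin of roots and other non-green tissue, at 65.5 and 69.6 RPKM. FD4 was at 0.04 RPKM in WT and listed at 0 in jmj17-1.

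RFNR1, a root-type ferredoxin-NADP reductase, measured 19.3 RPKM in WT and 30.7 in jmj17-1 (ratio 1.59, 1.44 to 1.77). The smallest length that gave whole reads put these values at 639 and 857 reads. The ratio of RFNR1 was the highest among the analysed genes of these lists, opposite in direction to both leaf forms. RFNR2, the other root form, lay at a log2 ratio of 0.04. Of the proteins that anchor the leaf enzymes at the membrane, TIC62 stood at 97.0 and 84.4 RPKM (ratio 0.871, 0.848 to 0.894) and TROL at 215 and 219 RPKM. The median of these 4 genes, 0.03, turned to -0.01 with the median of all features set to a ratio of 1 and to -0.02 under quantile normalization. PTOX, the plastid terminal oxidase, stood at 19.8 and 21.6 RPKM.

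The remaining nuclear genes of the chloroplast ATP synthase did not share a direction. Of 6 genes for subunits and assembly 2 lay below 0 and 4 above, with a median of 0.01 that turned to -0.03 with the median of all features set to a ratio of 1 and to -0.02 when rescaled to features under 1000 RPKM, with 4 below 0 and 2 above in both. Under quantile normalization 3 lay below 0 and 3 above. AT2G31040, an ATP synthase protein I-like gene, stood at 133 and 108 RPKM and AT4G34090 at 19.3 and 17.4 RPKM. ATPG, the nuclear stator subunit (PDE334 in RefSeq), stood at 585 and 587 RPKM (ratio 1.00, 0.982 to 1.03). All 7 nuclear genes chosen for the mitochondrial ATP synthase were higher in jmj17-1. Their ratios were 1.10 to 1.17, with a median log2 ratio of 0.17. Further genes of that complex were not examined. Of all analysed features 39.5% lay below 0. The highest of the 7 were AT1G51650, the epsilon chain, at 123 and 143 RPKM and ATP5 (AT5G13450) at 187 and 211 RPKM. AT5G08670, AT5G08680 and AT5G08690 had no whole reads at 1 length and so no counting interval. Whether reads of these neighbours can be told apart was not examined. All 7 stayed above 0 under the 4 other scalings tried, while ATPD stayed below. ATPC1 stayed below as well, but its counting interval, taken only at the scaling as deposited, included a ratio of 1. Its log2 ratio was -0.007 when rescaled without plastid- and mitochondria-encoded loci. Plastid-encoded features chosen as partners in cytochrome b6f and the ATP synthase had low levels in this table, and their identifiers are not paired with names in the reference used here. Of 6 and 6 such features 3 and 5 were analysed, with medians of -0.08 and -0.11. ATCG00540 stood at 0.96 and 1.18 RPKM, ATCG00730 at 1.53 and 1.24, ATCG00130 at 1.35 and 1.95 and ATCG00470 at 5.67 and 4.67.

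**Figure D3:**
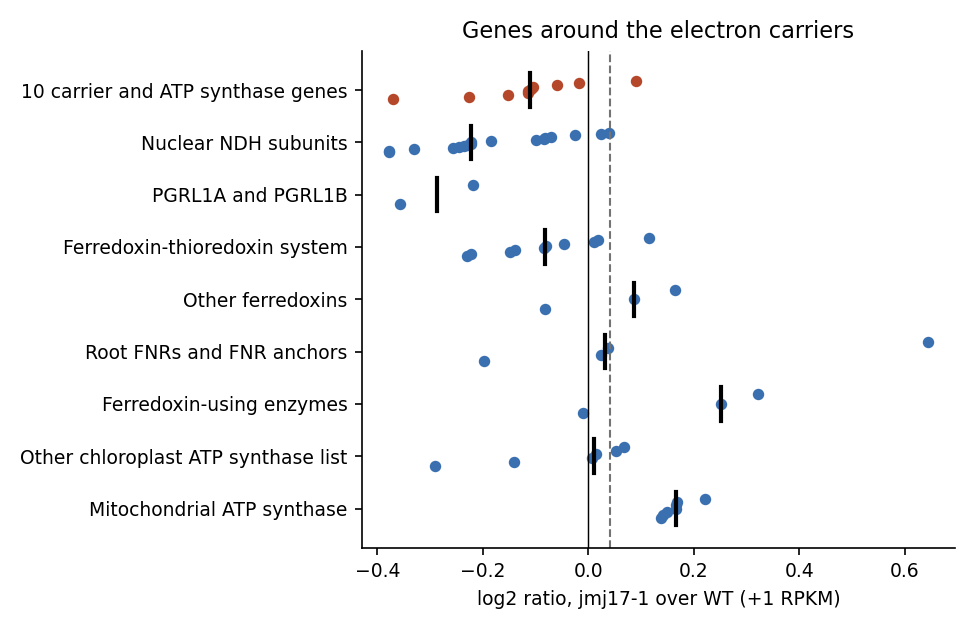
The log2 ratio (1 RPKM added) of each analysed gene in 9 groups, with the group median as a black bar, 0 as a solid line and the median of all features, 0.04, as a dashed line. The 10 carrier and ATP synthase genes centre at -0.11, the listed NDH subunits at -0.22 and the listed mitochondrial ATP synthase genes at 0.17.

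The photosystems on either side of these carriers were read from lists written after results were known. All 12 nuclear photosystem I subunit genes lay below 0, with a median log2 ratio of -0.26, and PSAD2 at 666 and 472 RPKM and PSAH1 at 1001 and 773 RPKM were the lowest. All 11 photosystem II genes lay below 0, with a median of -0.22, and PSBQ2 at 1439 and 1166 RPKM and PSBO2 at 967 and 794 RPKM were the lowest. Of these genes 9 of photosystem I and 8 of photosystem II averaged 1000 RPKM or more, a level at which 85.2% of all features lay below 0. That share is of only 54 features and counts these same genes, so it is no independent background for them. Both medians stand below that of the 10 genes, -0.11, a difference that was not tested. Under quantile normalization, which equalizes the distributions of the libraries, 10 photosystem I genes lay below 0 and 2 above, and 8 photosystem II genes below and 2 above. The medians of photosystem I, photosystem II and the 10 genes were then -0.09, -0.10 and -0.10.

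**Figure D4:**
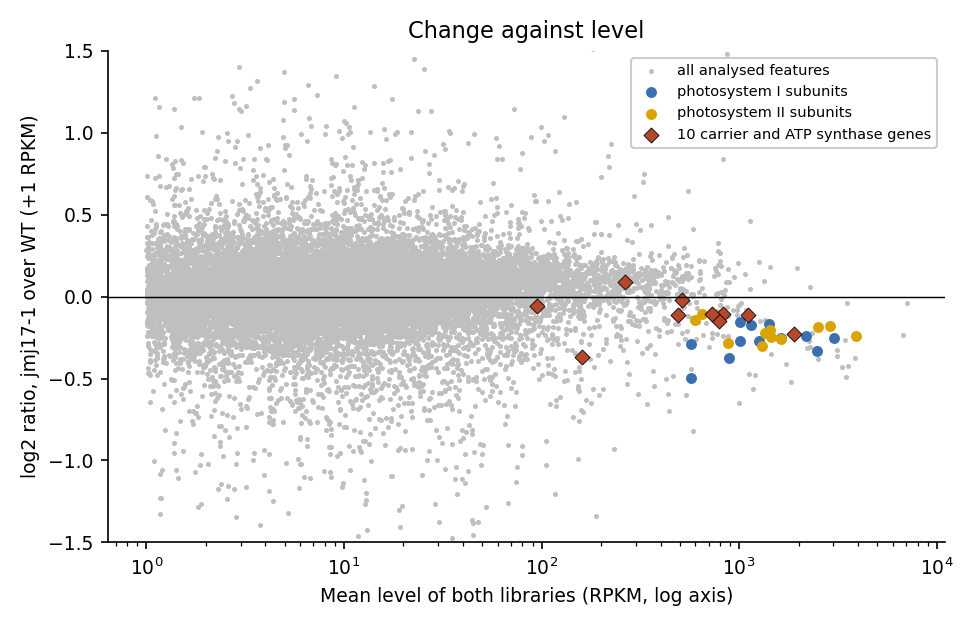
The log2 ratio of jmj17-1 to WT (1 RPKM added) against the mean level of both libraries (RPKM, log axis) for 18969 features in grey, 64 of them beyond the axis limit of 1.5. The 10 carrier and ATP synthase genes (diamonds) have a median of -0.11 and the photosystem I and II genes (circles) medians of -0.26 and -0.22.

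Markers of tissue were measured beside these values. The green-tissue markers LHCB1.3, RCA and RBCS1A were abundant and all 3 were below 0, at 7302 and 6216, 2513 and 2149.8, and 7138 and 6948 RPKM. At their level of 1000 RPKM or more 85.2% of all features lay below 0, a share that counts these 3 markers themselves. Under quantile normalization 1 of the 3 lay below 0 and 1 above, with a median of 0. Of 6 root markers 5 were above 0, where 39.5% of all analysed features lay below 0. The summed levels of the 6 were 84.0 and 88.6 RPKM. The highest ratios among them were those of PRP3, at 14.4 and 19.9 RPKM, and WOX5, at 0.94 and 2.06. The most abundant of the 6, AT5G43350, was lower in jmj17-1, at 47.8 and 44.6 RPKM. The counting intervals of SCR, EXPA7 and COBL9 included a ratio of 1. Of 4 seed storage markers 2 were analysed, and both passed the 2-fold rule downward, CRU3 from 6.34 to 0.55 RPKM and CRA1 from 7.39 to 1.70 RPKM. The part of tissue make-up or seedling age in the values of the 10 genes was not tested. In whole seedlings, fewer green cells and less RNA per green cell cannot be told apart.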

How the data were processed

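Per the labels, total RNA of whole seedlings went into TruSeq libraries for Illumina HiSeq sequencing. The authors deposited RPKM values, a Z score and an unadjusted p-value for each feature. TAIR10 is the build named in the submitters' processing notes. No aligner, counter, feature lengths or strand setting is named there (not given in the sources used here). Features with a mean of at least 1 RPKM were analysed, and the log2 ratio used a pseudocount of 1 RPKM, which understates the change of low genes. RPKM are not counts, and with 1 library per genotype no test was made. Depth was taken from the steps of RPKM times reference length under 0.1 RPKM, and whole reads were sought at lengths of 150 to 5999 bases. The smallest length that fitted was kept, so read numbers can be too low and intervals too wide. Reads without molecular identifiers are not independent molecules, so intervals cover counting error only.

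Gene positions, overlaps, coding sequences and the bases before each start were read from the RefSeq TAIR10.1 genome and annotation, in which all 10 loci were found. Near-identical transcripts were sought with BLAST+ 2.17.0. Scripts ran in Python 3.11.15 with Biopython 1.88 and were tested on simulated data. The genes, the gene lists, the green, root and seed marker lists and the size rules were chosen with earlier results of these data known. Named genes were the 10 members, JMJ17, and of each list up to 4 genes past 2-fold or otherwise the 2 with the largest absolute log2 ratio. Genes beyond that were named after their values were seen. They were GLU1, FD4, RFNR2, TROL, ATPG, RBCS1A, AT5G43350, SCR, EXPA7, COBL9, AT5G08670, AT5G08680 and AT5G08690. Alternatives were other pseudocounts, scalings and filters. Of the sample columns 0 were left unassigned. A sequence comparison of the ferredoxin pair is not reported here.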

Additional observations from a re-analysis of the deposited data

How the results depend on the processing

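No gene of the 10 reached 2-fold under any pseudocount or scaling tried. The number below 0 stayed at 9 except under quantile normalization, where it was 8 because PETE2 stood at a log2 ratio of 0. That 0 follows by construction from its rank of 25 in both libraries. Among the 7 genes with whole reads at 1 length, an alternative chosen after seeing the data, all 7 lay below 0 and the median was -0.11. The median was -0.15 with the median of all features set to a ratio of 1, where 2 genes, PETE1 and PETE2, were at least 1.2-fold lower, and -0.14 when rescaled to features under 1000 RPKM. With a pseudocount of 0.1 RPKM 142 features were at least 2-fold higher, with 5 RPKM 25 were higher and 49 lower, and at a mean of at least 5 RPKM 71 were lower, against 74 higher and 110 lower as reported. By construction the rescalings shift all ratios alike, and a larger pseudocount shrinks those of low features. No sign of the 10 genes was reversed. No paired analysis was possible because each genotype has 1 library. Under quantile normalization, for these balances an alternative chosen after seeing the data, the log2 balance of FD1 over FD2 was 0.051 and that of PETE1 over PETE2 -0.41, against 0.21 and -0.15 as reported. With PGR5 at its exonic length, also chosen after seeing the data, 8 counting intervals lay under a ratio of 1 in place of 7. The spread between seedlings is unknown.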
